A study of Mus musculus with 6 samples.

Results

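Clustered histone genes are the replication-dependent histone genes that lie side by side in the mouse genome. They were taken here as every gene whose symbol starts with Hist1h, Hist2h, Hist3h or Hist4h in the deposited gene list, which gave 67 of 31053 genes. By the class in the symbol, 6 encode the linker histone H1, 18 encode H2A, 18 encode H2B, 12 encode H3 and 13 encode H4. Their levels were followed in B cell progenitors of mouse bone marrow, between cycling and resting cells, between cells with and without a rearranged heavy chain, and between 3 groups of mice.

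Each group was 1 pool of 2 C57BL/6 mice and gave 1 gene-expression library and 1 V(D)J library (sequences of rearranged antigen-receptor chains), 6 libraries in all. The young group was wild-type at 12 weeks, the aged group wild-type at 100 weeks, and the IkB-deficient group had the genotype nfkbie-/-nfkbib-/-nfkbia+/- at 12 weeks, so it lacked IkB epsilon and IkB beta, which keep NF-kB inactive, and kept 1 allele of IkB alpha. All groups shared the same strain, tissue and sort, which kept B220+ cells without surface IgM or IgD and without CD49b, Gr-1, F4/80, CD11b, CD8a or CD3e, with no culture and no treatment. With 1 library a group there is no spread between animals, so no test between groups was made and intervals between groups cover counting error only.

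A cell needs new histones when it copies its DNA, and most clustered histone genes are read mainly in S phase. Their messages usually end in a stem-loop that is bound by SLBP in place of a poly(A) tail, and they are destroyed when replication ends. H2A, H2B, H3 and H4 form the core of the nucleosome, and H1 binds the DNA between nucleosomes. In B cell development bursts of division alternate with resting stages: pro-B cells rearrange the heavy chain, large pre-B cells that carry one divide, and small pre-B cells rest and rearrange a light chain. The droplet assay used here starts from poly(A), and the share of histone messages it captured was not measured, so every value is of captured transcripts.

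After filtering, the young, aged and IkB-deficient libraries held 8786, 7357 and 8825 cells with medians of 3806, 4312 and 6419 UMIs (unique molecular identifiers, each counting 1 captured molecule). A cell was called resting with 0 UMIs of Mki67, Top2a, Cdk1 and Birc5 and cycling with 2 or more. Cells with exactly 1, numbering 838, 397 and 760, were in neither class, and cells with exactly 2 numbered 135, 154 and 224. A productive heavy chain (IGH) was read in 75.2%, 53.3% and 11.3% of cells. Nfkbie, Nfkbib and Nfkbia, the targeted genes, stood at 105, 81.6 and 2.64 CPM, at 56.2, 54.0 and 19.0 CPM and at 472, 357 and 242 CPM (CPM is UMIs per 1000000, with antigen-receptor genes left out of the total). The B-lineage markers Cd79a and Cd79b were present in every library. Cells with 2 or more UMIs of plasmacytoid dendritic, myeloid or NK markers made up 26.8% to 38.8% of cells without IGH and 2.92% to 8.47% of cells with IGH. Xist without Y-linked UMIs was found in 0%, 24% and 90.9% of cells, and Y-linked UMIs without Xist in 63.2%, 43.1% and 0.0113%, so genotype and sex cannot be told apart in the IkB-deficient comparison. Pairs of libraries shared 70 to 83 cell barcodes.

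The clustered histone genes summed to 2521 CPM in the young library, 1619 in the aged and 912 in the IkB-deficient library. A few genes carried most of this signal. The 5 highest members held 46.6% of all member UMIs and the 12 highest held 73.0%. Of the 67 genes, 19 had a mean of at least 20 CPM, 37 lay between 1 and 20, and 11 lay below 1. The level of a gene is its UMI count at the 5' end and is not divided by length, so an order between genes is an order of captured molecules.

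Linker histone genes led. Hist1h1e (ENSMUSG00000051627, chromosome 13, 23621777 to 23622558 in mm10) stood at 366, 229 and 128 CPM in young, aged and IkB-deficient cells. Hist1h1b, another somatic linker histone gene, stood at 329, 225 and 154 CPM, and Hist1h1c at 162, 115 and 52.7 CPM. The IkB-deficient library was the lowest for each of the 3. Together the 6 H1 genes held 46.4% of member UMIs, against 21.5% for H2A, 15.5% for H2B, 6.39% for H3 and 10.3% for H4. Hist1h2ae and Hist1h2ap were the highest H2A genes, at 160, 93.1 and 48.3 CPM and at 131, 76.6 and 19.9 CPM. Of the H2B genes, Hist1h2bj came first at 71.1, 52.2 and 29.4 CPM, followed by Hist3h2ba at 75.4, 47.4 and 4.84 CPM. For H3 these were Hist1h3e at 52.8, 35.3 and 20.3 CPM and Hist1h3a at 26.1, 13.1 and 8.005 CPM. For H4 they were Hist1h4i at 97.3, 70.5 and 59.7 CPM and Hist1h4d at 55.8, 30.5 and 13.9 CPM. In each of these the young library was highest and the IkB-deficient library lowest. The 3 members known for expression in male germ cells were nearly silent: Hist1h1t had 28, 5 and 20 UMIs, Hist1h2aa had 3, 0 and 0, and Hist1h2ba had none in any library.

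**Figure D1:**
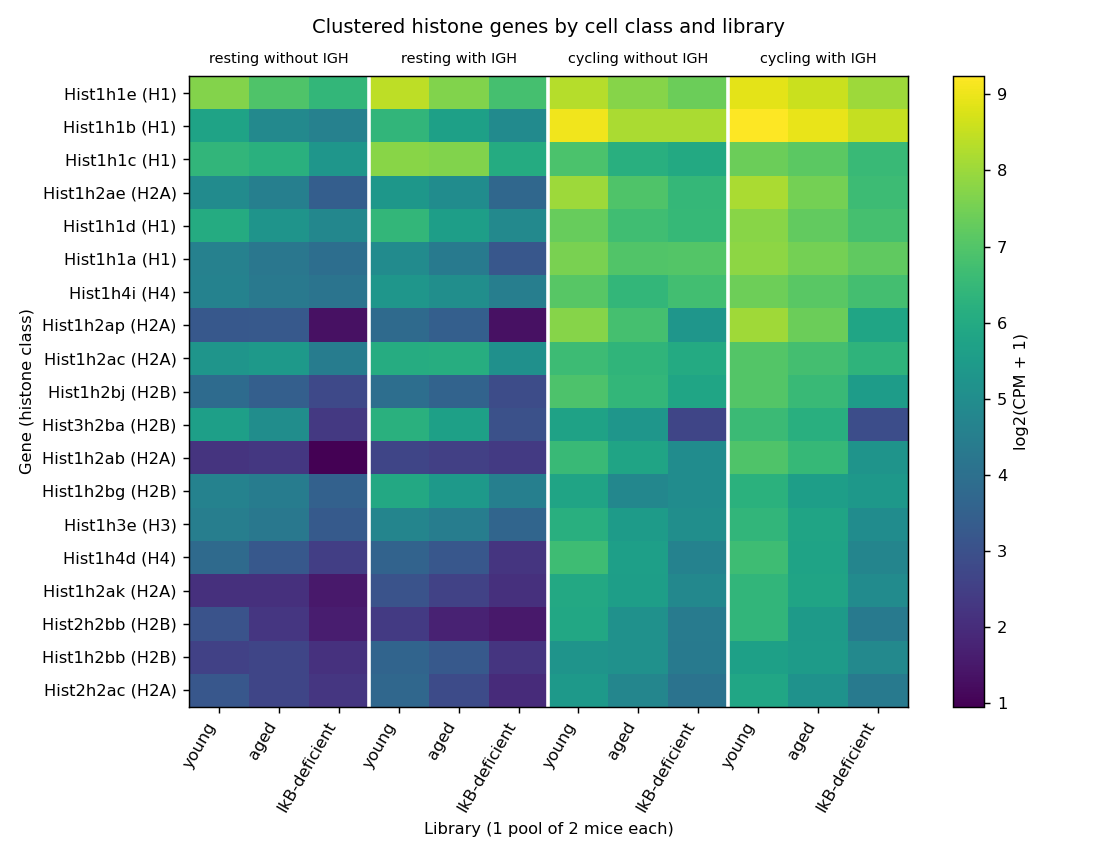
Level of the 19 clustered histone genes with a mean of at least 20 CPM, as log2(CPM + 1), with 1 row per gene and 1 column per library within each of 4 cell classes. Cycling columns are brighter for most genes, the H1 genes Hist1h1e, Hist1h1d and Hist1h1c are also bright in resting cells, and the IkB-deficient column is the darkest of its class for all 19 genes except Hist1h1a, Hist1h2bg and Hist1h4i in cycling cells without IGH.

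Position followed the names. The Hist1 locus on chromosome 13 (21715711 to 23934913) holds 54 members and gave 91.7% of member UMIs. The Hist2 locus on chromosome 3 (96219885 to 96270192) holds 10 members and gave 4.73%. Hist3 on chromosome 11 (58948911 to 58955192) holds Hist3h2a and Hist3h2ba and gave 2.56%, and Hist4h4 on chromosome 6 gave 0.981%. Many core histone genes are near-identical copies. How reads shared by copies were handled is not given in the sources used here, so the split of UMIs between copies is uncertain.

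The first comparison asked how the members differ between cycling and resting cells of the same library. Clustered histone genes were higher in cycling cells as a group, in each library and in each class of histone. Summed over members, the young library went from 1159 CPM in resting to 3887 CPM in cycling cells, the aged library from 723 to 2427, and the IkB-deficient library from 346 to 1521. The ratios were 3.35 (95% interval 3.31 to 3.40), 3.36 (3.30 to 3.42) and 4.399 (4.31 to 4.49). H2A genes had the largest summed ratios, 6.91, 5.21 and 6.598, and H1 genes the smallest, 2.45, 2.83 and 3.89. H1 made up 53.8% and 56.8% of member UMIs in young resting cells without and with IGH, and 40.6% and 41.1% in the cycling cells.

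Over the 3 libraries, edgeR's quasi-likelihood test with the library as a block and Benjamini-Hochberg adjustment over all genes at 0.05 found 55 of the 59 tested members higher in cycling cells and 0 lower, at unadjusted p under 0.05 also 55. Of all 12668 genes tested, 31.5% were called higher and 34.0% lower. The median log2 fold change was 2.54 over the tested members and -0.05 over all genes, and 23 members rose more than 8-fold. The other 8 members had too few UMIs to be tested. All 15 tested H2B genes and all 10 tested H3 genes rose, as did 14 of 16 H2A, 12 of 13 H4 and 4 of 5 H1 genes. The 3 libraries come from 3 different groups, so the spread behind these tests is between groups as well as between pools.

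The members with the largest rise had few UMIs in resting cells. Hist1h3g, an H3 gene, stood at 0.438, 0.616 and 0.364 CPM in young, aged and IkB-deficient resting cells and at 43.4, 28.0 and 13.5 CPM in cycling cells. Its log2 fold change was 6.06 (SE 0.22, edgeR adjusted p 8.04e-06), the largest of all members. Hist1h2af, an H2A gene, went from 1.31, 0.257 and 0.231 CPM to 42.3, 12.5 and 5.88 CPM, a log2 fold change of 5.30 (SE 0.18, edgeR adjusted p 5.99e-06). No resting library reached the lowest cycling library for either gene. Among more abundant H2A genes, Hist1h2ap went from 11.6, 9.14 and 1.52 CPM to 250, 138 and 39.8 CPM (log2 fold change 4.57, SE 0.14) and Hist1h2ab from 4.91, 4.26 and 1.22 CPM to 117, 72.0 and 31.2 CPM (4.68, SE 0.12). The H2B gene Hist1h2bm rose by 4.68 (SE 0.15) on the same scale. Hist1h2bk and Hist1h2ah also rose, by 5.25 (SE 0.40) and 5.22 (SE 0.46), but each had 0 UMIs in the resting cells of 1 library. Against a floor of 3 counts per library, Hist1h2bk was at least 15.2-fold higher in aged cycling cells and Hist1h2ah at least 5.25-fold higher in IkB-deficient cycling cells. Their fitted values depend on the prior count of the fit.

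The most abundant members did not share 1 pattern. Hist1h1b, whose product is an H1 linker histone, went from 73.8, 36.9 and 23.9 CPM in resting to 584, 396 and 296 CPM in cycling cells (log2 fold change 3.60, SE 0.13, edgeR adjusted p 8.04e-06). Hist1h1a behaved alike, at 27.9, 18.6 and 13.8 CPM against 217, 152 and 130 CPM (3.33, SE 0.08). Hist1h1e rose less, from 295, 157 and 88.3 CPM to 437, 297 and 171 CPM (1.07, SE 0.09). Hist1h1d lay between them at 1.84 (SE 0.09). Hist1h1c did not pass the test: it stood at 175, 126 and 40.8 CPM in resting and 153, 107 and 65.2 CPM in cycling cells, so it was lower in cycling cells of the young and aged libraries by CPM and higher in the IkB-deficient library. Its fitted log2 fold change was 0.33 (SE 0.17, edgeR adjusted p 0.131). The sign for this gene turns on scaling, because the median gene was lower in cycling cells by CPM, by -0.26, -0.28 and -0.19 on the log2 scale in the 3 libraries, and the scaling factors of the fit remove this shift.

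Hist3h2ba, an H2B gene outside the large cluster, had the smallest rise that passed, from 65.3, 38.9 and 4.30 CPM to 86.0, 55.2 and 5.60 CPM (log2 fold change 0.69, SE 0.08, edgeR adjusted p 0.000513). Hist2h2be, also an H2B gene, rose by 0.88 (SE 0.11) from 14.4, 10.6 and 12.3 CPM to 24.96, 16.8 and 16.4 CPM. Hist1h1c and Hist2h2be are known from other cells to make polyadenylated messages outside S phase as well. Hist3h2a, Hist2h2aa1 and Hist1h4m did not pass either, with fitted values of 0.04 (SE 0.17), 0.09 (SE 0.29) and 0.76 (SE 0.35). Hist1h4m had only 53, 43 and 1 UMIs in all.

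**Figure D2:**
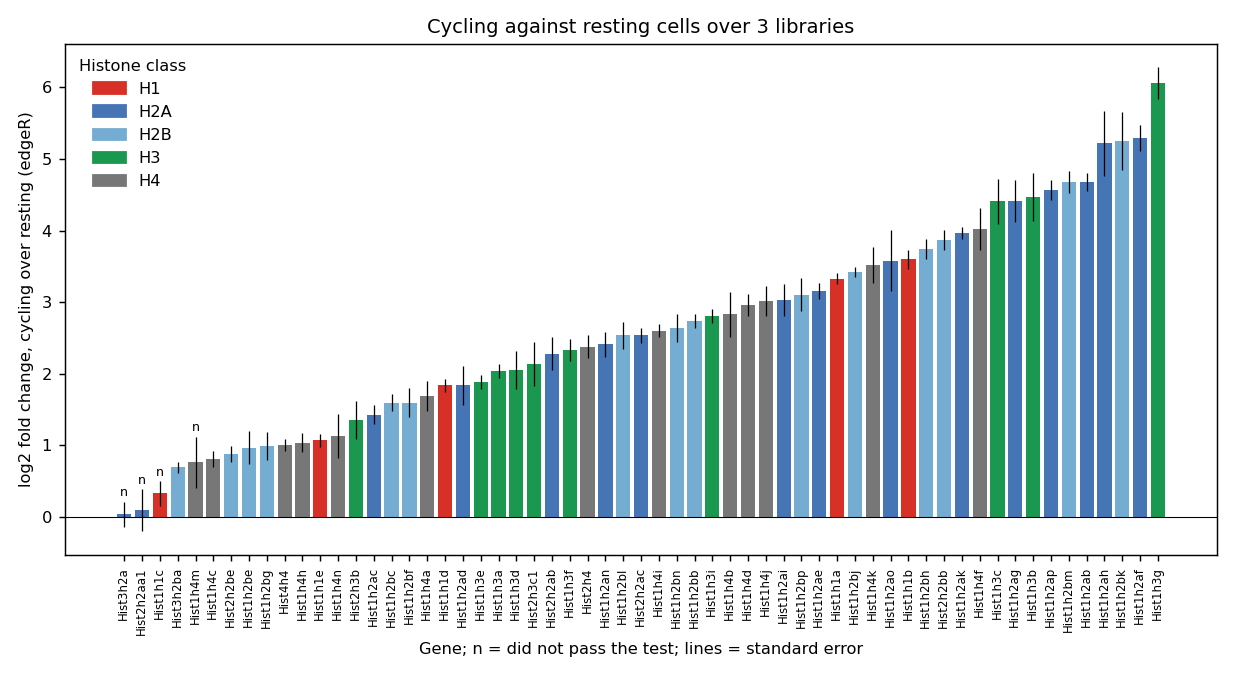
Log2 fold change of cycling over resting cells for the 59 tested members, fitted with edgeR over 3 libraries and ordered by size, with bars coloured by histone class and lines of 1 standard error. The bars run from 0.04 for Hist3h2a to 6.06 for Hist1h3g, and 4 genes marked n did not pass the test.

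Other genes of histone supply were read from fixed lists for comparison. All 19 S phase genes rose (median log2 fold change 3.06) and so did the 12 G2 and M phase genes that do not define the classes (median 5.94). Of 12 histone chaperones, which carry new histones to DNA, 10 rose and 0 fell (median 1.85). Asf1b, a chaperone of H3 and H4, rose by 5.65, while the most abundant of them, Rbbp4, Nap1l1 and Rbbp7, rose by 1.35, 2.40 and 1.83. Of 14 genes of histone message processing and turnover, 12 rose and 1, Lsm10, fell by 0.25 (median 0.98). Slbp rose by 2.42, Npat, which switches on histone transcription, by 1.12, and Srrt by 0.85, and Cpsf2 had a fitted value of 0.34. Of 10 histone variants encoded outside the clusters, 8 rose and 0 fell (median 1.83). H2afz, an H2A variant gene, rose by 3.19, and H3f3b had a value of -0.16 and did not pass. For H3f3a (fitted value 0.21) and Cpsf2 the sign depends on the scaling of the fit. By CPM, H3f3a was lower in cycling cells of the young (5164 to 4864) and aged (4542 to 4221) libraries and higher in the IkB-deficient library (4285 to 4415). Cpsf2 went from 172 to 158, from 139.7 to 140.0 and from 109 to 140.2 CPM. Hira and H2afj were also called higher while lower by CPM in the young library, with ratios of 0.984 and 0.974. On this scale the clustered genes (median 2.54) lay between the S phase genes and the chaperones.

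The upstream sequences of members from both ends of this range are given so that the promoters can be set beside the responses. Each line holds the 150 bases before the annotated start in RefSeq on GRCm38.p6 (mm10), in the direction of the gene. They cover Hist1h3g at chr13:23535268-23535417 on the plus strand, Hist1h2ab at chr13:23750938-23751087 (plus), Hist1h2bj at chr13:22043048-22043197 (plus), Hist1h1b at chr13:21780626-21780775 (minus), Hist1h1c at chr13:23738657-23738806 (plus) and Hist3h2ba at chr11:58948761-58948910 (plus). Capitals mark matches, on either strand, to 4 motifs. The TATA box was searched as TATAAA. The CCAAT box was searched by its own letters. The octamer was searched as ATTTGCAT. A box known from promoters of linker histone genes, called the H1 box, was searched as AAACACA. None of the marked matches overlap.
Hist1h3g: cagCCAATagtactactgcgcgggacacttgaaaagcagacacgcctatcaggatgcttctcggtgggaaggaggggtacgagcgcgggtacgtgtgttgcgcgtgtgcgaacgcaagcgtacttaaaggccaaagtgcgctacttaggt
Hist1h2ab: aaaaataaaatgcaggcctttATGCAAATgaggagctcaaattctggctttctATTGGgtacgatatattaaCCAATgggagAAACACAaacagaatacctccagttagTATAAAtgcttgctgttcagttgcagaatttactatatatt
Hist1h2bj: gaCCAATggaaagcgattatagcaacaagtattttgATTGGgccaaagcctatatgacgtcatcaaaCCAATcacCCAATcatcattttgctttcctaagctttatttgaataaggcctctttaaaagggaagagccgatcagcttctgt
Hist1h1b: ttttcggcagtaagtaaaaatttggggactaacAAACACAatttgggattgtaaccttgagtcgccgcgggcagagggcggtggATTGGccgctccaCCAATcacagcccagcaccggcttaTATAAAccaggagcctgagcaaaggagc
Hist1h1c: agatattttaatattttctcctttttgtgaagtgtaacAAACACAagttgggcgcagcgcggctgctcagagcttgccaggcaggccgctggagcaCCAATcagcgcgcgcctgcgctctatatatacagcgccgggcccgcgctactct
Hist3h2ba: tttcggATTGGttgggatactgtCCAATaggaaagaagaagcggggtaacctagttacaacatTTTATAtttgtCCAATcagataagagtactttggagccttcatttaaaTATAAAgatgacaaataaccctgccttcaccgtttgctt

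Hist1h3g, with the largest rise, had only a single CCAAT box in this stretch, whereas Hist1h2ab had an octamer, 2 CCAAT boxes, an H1 box and a TATA box. Hist1h2bj had 4 CCAAT boxes and no TATAAA. Hist1h1b and Hist1h1c both held the H1 box, and Hist1h1b alone of the pair held TATAAA, although the 2 genes were at opposite ends of the response among H1 genes. Hist3h2ba, with a small rise, held 2 TATAAA matches and 3 CCAAT boxes. Promoter windows of 300 bases (250 before the start and 50 after) were found for 62 of the 67 members. TATAAA was in 56.5% of them against 13.6% of all 32851 windows, CCAAT in 85.5% against 37.4%, the octamer in 21.0% against 1.74%, and the H1 box in 14.5% against 7.18%. The octamer lay only in H2A and H2B windows (7 of 18 and 6 of 16), and the H1 box in 5 of 6 H1 windows, 2 H2A windows and 2 H2B windows. CCAAT was in every H1, H2A, H2B and H3 window and in 3 of 12 H4 windows. Members with and without TATAAA had median log2 fold changes in cycling cells of 2.62 and 2.93, and members with and without the octamer 3.16 and 2.60. A match describes the letters only.

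Members that share an upstream region did not need to share a level. Pairs were sought among the 62 members with a promoter window, which gave the strand. In 10 pairs, members start back to back within 1000 bases, with 164 to 281 bases between the starts of the genes. Each of the 10 joins an H2A gene to an H2B gene. Members without a window, among them Hist2h2be and Hist1h2bc, could not be paired, so the count may be incomplete. Hist1h2ae stood at a mean of 100 CPM and its partner Hist1h2bg at 38.1, with log2 fold changes in cycling cells of 3.16 and 0.998 across 180 shared bases. Hist1h2ap stood at 75.8 CPM and Hist1h2br at 0.311. Hist1h2bj stood at 50.9 CPM and Hist1h2ag at 2.29, with log2 fold changes of 3.42 and 4.41. Over the 7 pairs in which both genes were tested, the fold changes of partners differed by a median of 0.69 on the log2 scale.

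Cycling cells were also divided by the share of S phase UMIs among S phase and late (G2 and M phase) UMIs, read from 2000 UMIs per cell. From the highest share to the lowest, the bins held 801, 713 and 542 young, 893, 615 and 429 aged and 1111, 721 and 511 IkB-deficient cells. Not all of the 2208, 2069 and 2562 cycling cells entered a bin. The late genes were the 11 of the G2 and M phase list that neither define the classes nor include Ccna2. The S phase list includes Mcm2 to Mcm7, Ccne1, Ccne2, Cdc6 and Cdt1. The share is of transcripts of these lists and does not show which cells were copying DNA. In cells with an S phase share of 75% or more, 25% to 75% and under 25%, the summed level of the clustered histone genes was 3315, 4626 and 4142 CPM in the young library. It was 1917, 2994 and 3118 CPM in the aged library and 1401, 1832 and 1653 CPM in the IkB-deficient library. The summed level was thus lowest in the cells with the highest share of S phase list transcripts in each library. It was higher where this share was under 25%. H1 genes alone stood at 1433 and 1491 CPM in the first and last bin of the young library. They stood at 880 and 1246 CPM in the aged and 732.3 and 731.8 CPM in the IkB-deficient library. The core genes went from 1881 to 2650, from 1037 to 1872 and from 669 to 921 CPM (young, aged, IkB-deficient). Slbp moved the other way. It went from 628 to 168 CPM in the young library, and from 538 to 153 and from 606 to 147 CPM in the aged and IkB-deficient libraries. Of the 19 members with a mean of at least 20 CPM, 13 were higher in the last bin than in the first in all 3 libraries, 1 (Hist1h1a) was lower in all, and 5 differed between libraries. The same was not counted over all genes. Hist3h2ba went from 48.8 to 150 CPM in the young library, from 30.2 to 115 in the aged library and from 2.996 to 11.2 in the IkB-deficient library. Hist1h2bg, Hist1h2ac and Hist1h1c were also highest in the last bin of every library. Hist1h2bg stood 2.82-fold, 3.18-fold and 2.69-fold above its first bin, and Hist1h1c 1.92-fold, 2.37-fold and 1.66-fold. Hist1h1a was highest in the middle bin, with 195, 291 and 156 CPM in young cells across the bins. These are ratios within single libraries with no test.

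**Figure D3:**
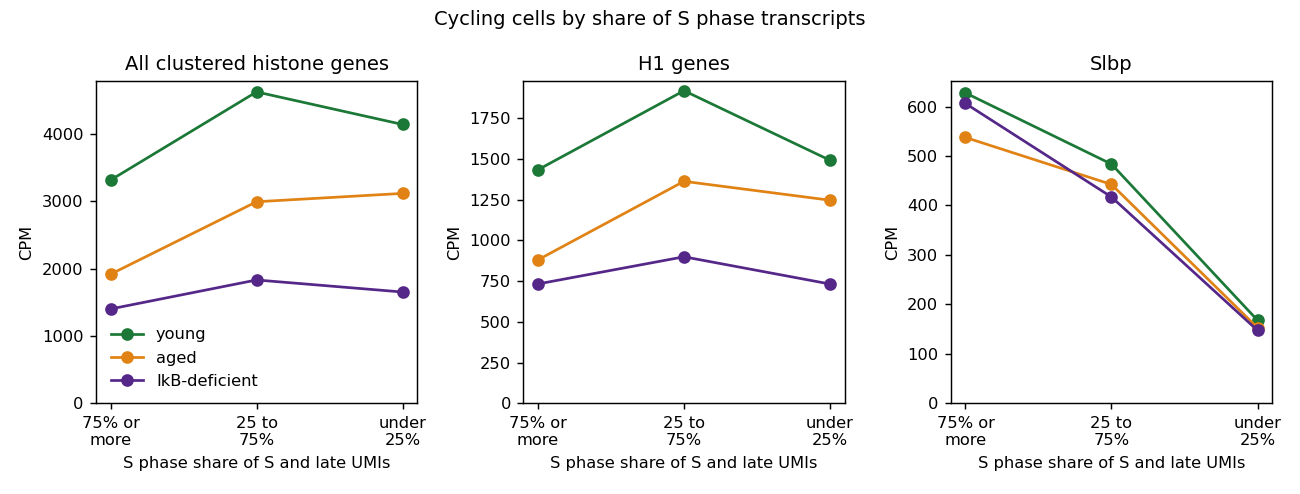
Summed level (CPM) of all clustered histone genes, of the 6 H1 genes and of Slbp in cycling cells of each library, against the S phase share of their S phase and late UMIs (3 bins). The summed histone level is lowest in the first bin of every library and highest in the middle bin in young and IkB-deficient cells, while Slbp falls from 628, 538 and 606 CPM to 168, 153 and 147 CPM.

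The second comparison set cells with a productive IGH contig against cells without, separately in resting and in cycling cells. In resting cells the summed level was higher with IGH in each library, at 1324 against 807 CPM (young), 947 against 565 (aged) and 437 against 337 (IkB-deficient). The edgeR test called 14 of 42 tested members higher and 1 lower, with 21 at an unadjusted p under 0.05, where 15.2% of all genes were called higher and 19.2% lower. Hist1h1c had a large rise for an abundant gene, from 84.5, 73.0 and 38.4 CPM without IGH to 217, 202 and 65.6 CPM with it (log2 fold change 1.26, SE 0.17, edgeR adjusted p 0.0103). In cycling cells with IGH it stood lower in the young and aged libraries, at 164 and 142 CPM, and higher in the IkB-deficient library, at 93.9 CPM. Hist1h2bf, an H2B gene of low level (1.83, 1.66 and 0.725 CPM without IGH), had the largest value, 1.66 (SE 0.28), and Hist1h3d, an H3 gene, rose by 1.33 (SE 0.32). Hist1h2bg rose from 23.6, 20.5 and 10.6 CPM to 61.6, 42.6 and 22.0 CPM (1.22, SE 0.12). Hist1h2ac and Hist3h2ba rose by 0.81 (SE 0.08) and 0.73 (SE 0.09). Hist2h2be was the member that fell, from 19.6, 12.2 and 12.8 CPM to 12.0, 8.20 and 6.71 CPM (-0.67, SE 0.15, edgeR adjusted p 0.0300). S phase genes in the same comparison had 4 higher and 7 lower of 19.

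This count rested on the choice of libraries and cells. By edgeR, without the young library 3 members were called and without the aged library 0 (11 at an unadjusted p under 0.05), while DESeq2 on all 3 libraries called 9. The 9 included no member called lower. Without cells carrying markers of other lineages, which made up 35.4% to 38.8% of resting cells without IGH and 4.51% to 5.78% of those with it, 4 members were called: the summed plasmacytoid dendritic markers were 893 to 2202 CPM in resting cells without IGH, with none of the 5 genes at 0, and 89.0 to 123 CPM in those with it, with 1 of the 5 at 0 in the IkB-deficient library.

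In cycling cells the summed level was again higher with IGH, at 4092 against 3241 CPM (young), 2912 against 1937 (aged) and 1846 against 1491 (IkB-deficient). The edgeR test called 33 of 59 tested members higher and 1 lower, with 39 at an unadjusted p under 0.05, against 13.9% and 18.1% of all genes. The rises were small, with a median of 0.48 on the log2 scale over the 59 members and 0.02 over all genes. All 5 tested H1 genes rose. Hist1h1e went from 320, 211 and 163 CPM to 474, 382 and 257 CPM (0.76, SE 0.07, edgeR adjusted p 0.000448) and Hist1h1c from 117, 71.3 and 62.5 CPM to 164, 142 and 93.9 CPM (0.76, SE 0.10). Hist1h2ad, a sparse H2A gene, had the largest value that passed, 1.17 (SE 0.35), followed by Hist3h2ba with 0.90 (SE 0.12). Further members with rises of 0.72 to 0.83 were Hist1h4k, Hist1h4j, Hist1h2an and Hist1h2bp. Hist2h2ab was lower, at 8.04, 4.88 and 2.24 CPM without and 4.74, 2.49 and 1.09 CPM with IGH (-0.79, SE 0.22). Among the list genes, 12 of 19 S phase genes rose and 1 fell, and 4 of the 12 G2 and M phase genes that do not define the classes rose. Without the young or the aged library 9 and 10 members were called, with DESeq2 16, and without cells carrying markers of other lineages, which made up 26.8% to 38.0% of cycling cells without IGH, 17.

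**Figure D4:**
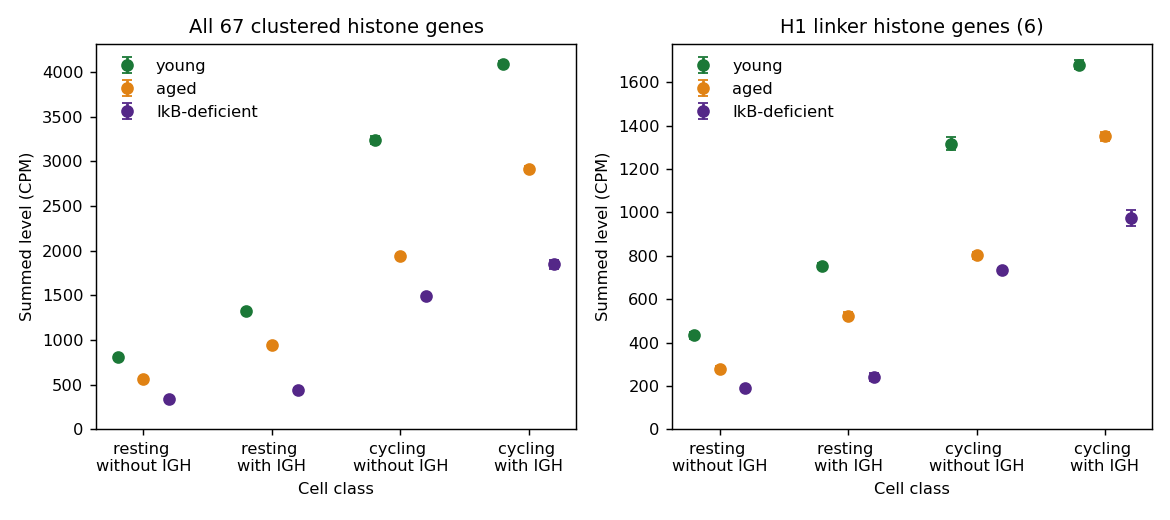
Summed level (CPM) of all 67 members and of the 6 H1 genes in 4 cell classes of each library, with 95% Poisson intervals that cover counting error only. In every class the young library is highest (807 to 4092 CPM over all members), the aged library is next (565 to 2912) and the IkB-deficient library lowest (337 to 1846).

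The third comparison set IkB-deficient against young cells of the same class. Cells of a class were not alike in stage markers. In resting cells with IGH, summed pro-B markers were 4285 CPM in IkB-deficient and 1149 in young cells, and pre-B markers 393 and 852. Pro-B markers were 2507 and 1244 CPM in cycling cells with IGH. Without IGH they were 7922 and 7910 in resting and 5539 and 5359 in cycling cells. Immature or mature B markers were 2327 and 438 CPM in resting cells with IGH and 1669 and 358 without. What stage adds to the ratios was not tested. Every measured clustered histone gene (mean of at least 20 CPM over both libraries) was lower in IkB-deficient cells in every class: 7 of 7 in resting cells without IGH, 24 of 24 in cycling cells without IGH, 9 of 9 in resting cells with IGH and 28 of 28 in cycling cells with IGH. All of their counting intervals lay below 1, and the share of all measured genes with such an interval was not counted. Summed over members, the ratios to young were 0.417 (95% interval 0.403 to 0.432), 0.460 (0.452 to 0.468), 0.330 (0.311 to 0.3504) and 0.451 (0.438 to 0.464) in the same order.

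With a threshold of 2-fold on the log2 scale with 5 CPM added, 5, 12, 7 and 16 of these members were past 2-fold lower and 0 past 2-fold higher. Over all measured genes 2.06%, 1.39%, 2.43% and 1.58% were past 2-fold lower, and 1.67%, 1.17%, 4.19% and 1.91% past 2-fold higher. Over all retained cells 16 of 18 measured members were past 2-fold lower, against 2.63% of all genes lower and 2.80% higher. The medians of the measured members were -1.05, -0.98, -1.38 and -1.24 in the 4 classes, and those of all genes lay between -0.04 and 0.02. A gene can enter through its young level alone: over all 67 members with no minimum the medians were -0.28, -0.76, -0.41 and -0.77, where the added 5 CPM holds low genes near 0.

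Hist3h2ba stood apart. It was at 48.3 CPM in young and 4.03 in IkB-deficient resting cells without IGH, 52.4 and 5.51 in cycling cells without IGH, 73.3 and 7.08 in resting cells with IGH, and 96.7 and 6.55 in cycling cells with IGH. Young cells were thus 12.0-fold (95% interval 9.63 to 15.02), 9.503-fold (7.84 to 11.6), 10.4-fold (6.596 to 17.3) and 14.8-fold (9.30 to 24.9) higher. The aged library, at 47.4 CPM over all cells, lay below the young one at 75.4 and above the IkB-deficient one at 4.84. Within the aged library, Hist3h2ba was at 43.3 CPM in cells with Xist alone and 47.5 CPM in cells with Y-linked UMIs alone. Its neighbour Hist3h2a, in the same locus, had 4.77, 3.28 and 1.25 CPM, too few to be counted as measured. The share of member UMIs that fell to Hist3h2ba was 2.99%, 2.93% and 0.531%.

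In cycling cells the core histone classes lay further below young than the linker histone class. In cycling cells without IGH the ratios of summed levels to young were 0.335 (95% interval 0.324 to 0.347) for H2A, 0.424 (0.406 to 0.443) for H2B, 0.386 (0.361 to 0.411) for H3 and 0.504 (0.478 to 0.531) for H4, against 0.557 (0.543 to 0.572) for H1. With IGH they were 0.331, 0.347, 0.383 and 0.452 against 0.578. In resting cells H1 was not the class nearest to young. Without IGH it had 0.435 (0.415 to 0.455), above H2B at 0.3499 (0.321 to 0.381), H2A at 0.398 and H3 at 0.381 and below H4 at 0.488 (0.439 to 0.542). With IGH it had 0.319, above H2B at 0.270 and H3 at 0.310 and below H2A at 0.381 and H4 at 0.469.

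Among single core genes, Hist1h2ap was 5.50-fold (5.07 to 5.97) higher in young cycling cells without IGH, at 211 against 38.3 CPM, and 4.72-fold (4.02 to 5.58) with IGH, at 263 against 55.7 CPM. The H4 gene Hist1h4d was 4.23-fold (3.79 to 4.73) and 3.91-fold (3.08 to 5.04) higher in young, and the H2B gene Hist2h2bb 3.01-fold (2.63 to 3.44) and 4.31-fold (3.28 to 5.78). The H3 gene Hist1h3i was 3.99-fold (3.29 to 4.83) and 3.27-fold (2.29 to 4.82) higher. Hist1h2af was 5.15-fold (3.44 to 8.09) higher in young cycling cells with IGH, at 45.0 against 8.74 CPM. At the other end, Hist1h4i differed by 1.29-fold (1.20 to 1.40) and 1.56-fold (1.38 to 1.76) and Hist1h1a by 1.47-fold (1.37 to 1.57) and 1.52-fold (1.38 to 1.69). In resting cells with IGH, Hist1h1c and Hist1h1e were 3.31-fold (2.84 to 3.87) and 3.09-fold (2.75 to 3.49) higher in young, at 217 against 65.6 CPM and at 336 against 109 CPM. Hist1h4m, an H4 gene, had 53 UMIs in young and 1 in IkB-deficient cells, a ratio with a counting interval from 12.8 to 3001.

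Beside the lower histone levels, the S phase list was not lower. Medians of the measured S phase genes against young were 0.32, 0.06, 0.29 and 0.02 on the log2 scale in the 4 classes. Those of the histone chaperones were 0.17, 0.17, 0.09 and 0.05, and those of the processing genes 0.06, 0.03, 0.00 and 0.03. The 12 G2 and M phase genes that do not define the classes had medians of -0.21 and -0.57 in cycling cells without and with IGH, and 12 of 12 were below 0 in both. In resting cells 0 of them were measured. There they summed to 64.1 CPM in IkB-deficient against 91.8 in young cells without IGH, and 56.6 against 99.3 with IGH. Resting cells of the 2 libraries thus differed in late transcripts, and what this adds to the resting histone ratios was not tested. Histone variants outside the clusters had medians of -0.08, -0.11, -0.23 and -0.03. No gene of the S phase, G2 and M phase, chaperone or processing lists was past 2-fold in any class, and 1 histone variant was past 2-fold lower in resting cells without IGH.

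**Figure D5:**
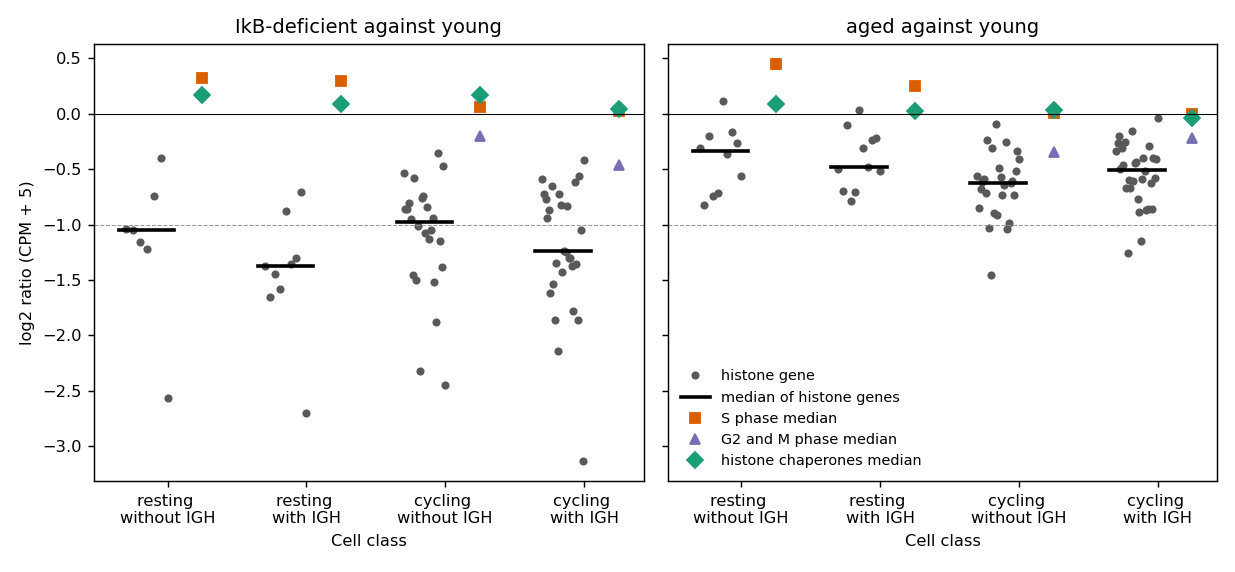
Log2 ratio to young (5 CPM added) of each measured clustered histone gene, with their median, in 4 cell classes of the IkB-deficient and the aged library, beside medians of the S phase, G2 and M phase (16 genes, with the 4 that define the classes) and chaperone lists. The dashed line marks a 2-fold lower level: from left to right, histone medians lie at -1.05, -1.38, -0.98 and -1.24 in IkB-deficient and at -0.34, -0.48, -0.62 and -0.51 in aged cells, and no S phase median lies more than 0.01 below 0.

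Libraries differed in depth, so the members were also read at 1 fixed depth. With every cell thinned to 2000 UMIs, leaving out 431, 591 and 159 resting and 25, 41 and 7 cycling cells that were shallower, resting cells held means of 2.46, 1.58 and 0.732 member UMIs in young, aged and IkB-deficient libraries. Cycling cells held 8.82, 5.79 and 3.12, with medians of 7, 4 and 2. The order of the libraries was the same in both classes. Thinning keeps the member share of each cell on average, and the classes were read before thinning. This order therefore does not test an effect of depth. In cells of 3000 to 6000 UMIs only, a band chosen after the data had been seen, IkB-deficient ratios to young were 0.395, 0.269, 0.379 and 0.429 in resting cells without IGH, cycling cells without IGH, resting cells with IGH and cycling cells with IGH, with only 52 young cycling cells without IGH and 43 IkB-deficient cycling cells with IGH. Without cells carrying markers of other lineages the ratios were 0.352 and 0.424 in resting and cycling cells without IGH. A single aged cell with 241 member UMIs among 2456 had the highest share of all, 9.81%, and gave 0.326% of the member UMIs of its library. No cell type that lacks histone messages was at hand, so free RNA was not measured and no share of expressing cells is given.

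The fourth comparison set aged against young cells, with the same young library as the third, so the 2 are not independent. Summed pro-B markers were 1964 CPM in aged and 1149 in young resting cells with IGH, and 7449 and 7910 without. What stage adds to these ratios was not tested either. Aged cells had lower clustered histone levels in every class, by less than IkB-deficient cells. The summed ratios were 0.700 (95% interval 0.675 to 0.726) in resting cells without IGH, 0.598 (0.586 to 0.609) in cycling cells without IGH, 0.715 (0.696 to 0.734) in resting cells with IGH and 0.712 (0.703 to 0.721) in cycling cells with IGH. Of the measured members 9 of 10, 26 of 26, 10 of 11 and 30 of 30 were below young, and the counting intervals of 8, 25, 10 and 29 lay below 1. How many of all genes had such an interval was not counted. Past 2-fold lower were 0, 3, 0 and 2, and 0 were past 2-fold higher, where 0.114%, 0.261%, 0.0688% and 0.0552% of all genes were past 2-fold lower and 0.195%, 0.296%, 0.688% and 0.0552% past 2-fold higher. Over all retained cells 20 of 20 measured members were below young and 0 past 2-fold, against 0.134% of all genes lower and 0.586% higher. The medians were -0.34, -0.62, -0.48 and -0.51, and over all genes -0.02, -0.04, -0.02 and -0.03.

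Hist1h2af had the largest difference among the measured members. It was at 33.7 CPM in young and 9.17 in aged cycling cells without IGH (3.68-fold higher in young, 2.90 to 4.69). With IGH it was at 45.0 and 15.9 CPM (2.84-fold, 2.42 to 3.34). Hist1h2ae (260 and 124 CPM) and Hist1h3i (33.0 and 13.5 CPM) were the other members past 2-fold in cycling cells without IGH. With IGH the other was Hist1h3d (31.1 and 11.3 CPM). In these classes the aged levels of Hist1h2af, Hist1h3i and Hist1h3d lay below the minimum mean set for a measured gene. That of Hist1h2ae did not. Hist1h2af, Hist1h3i and Hist1h3d thus entered through their young level alone. Hist1h2ac was the exception among the measured members: it was at 37.5 and 41.0 CPM in young and aged resting cells without IGH and 66.4 and 68.1 CPM with IGH, both within counting error. Hist1h1c in resting cells with IGH differed little, at 217 and 202 CPM (ratio 0.933, 0.878 to 0.991).

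The aged pool held cells with Xist alone and cells with Y-linked UMIs alone, and both sets were lower than young in every class. Aged cells with Xist alone had summed ratios to all young cells of 0.584, 0.519, 0.723 and 0.686 in resting and cycling cells without IGH and in resting and cycling cells with IGH, and aged cells with Y-linked UMIs alone had 0.781, 0.610, 0.688 and 0.697. In cells without IGH the Xist set was the lower one, at 472 against 631 CPM in resting and 1680 against 1976 CPM in cycling cells. In cells of 3000 to 6000 UMIs the aged ratios were 0.677, 0.485, 0.742 and 0.770. The S phase list had medians against young of 0.45 and 0.25 in resting cells without and with IGH and within 0.01 of 0 in cycling cells. The 12 G2 and M phase genes that do not define the classes had -0.35 and -0.22 in cycling cells without and with IGH, with 12 of 12 below 0 in both. In resting cells they summed to 54.9 CPM in aged against 91.8 in young cells without IGH, and 61.4 against 99.3 with IGH. What this adds to the resting histone ratios was not tested.

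Over the 19 members with a mean of at least 20 CPM, the order young, aged, IkB-deficient from high to low was found for 15 in resting cells without IGH, 16 in cycling cells without IGH, 18 in resting cells with IGH and all 19 in cycling cells with IGH. The IkB-deficient library was lowest for 19, 16, 19 and 19 of them. The share of all genes in either order was not counted. In cycling cells without IGH, Hist1h1a, Hist1h2bg and Hist1h4i were lowest in the aged library instead. In resting cells without IGH, Hist1h2ab, Hist1h2ac, Hist1h2ap and Hist1h2bb were highest in the aged library. Of these only Hist1h2ac reached a mean of 20 CPM over young and aged cells of that class, and it differed within counting error. Over all retained cells the make-up of the captured histone messages also differed. Of member UMIs in the young, aged and IkB-deficient libraries H1 held 44.4%, 46.0% and 50.7%, and H2A held 22.9%, 22.1% and 17.9%. In cycling cells H1 held 40.6%, 41.4% and 49.1% without IGH and 41.1%, 46.4% and 52.7% with IGH. Resting cells did not share this order. There H1 held 53.8%, 49.55% and 56.1% without IGH and 56.8%, 55.2% and 54.8% with IGH. H2A held 12.5%, 14.5% and 14.4% in resting cells with IGH.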

How the data were processed

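The deposited files hold UMI counts per gene and cell for 3 gene-expression libraries, made from a 5' droplet assay with Cell Ranger on mm10 per the submitters' processing notes. The matrix headers name software version 3.0.1, and the Cell Ranger release is not given in the sources used here. Contig tables of the 3 matched V(D)J libraries, with deposited UMI and read counts per contig, gave the cells with a productive IGH contig. Gene counts totalled 54698092, 50701225 and 78266890 UMIs in the young, aged and IkB-deficient libraries.

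Barcodes below 500 UMIs or 300 genes, or above 10% mitochondrial UMIs, were dropped. The cells with the highest Scrublet scores (scanpy 1.11.5) were removed as doublets at 0.8% per 1000 cells, because the automatic threshold called only 1, 231 and 333. CPM totals leave out 650 antigen-receptor genes. Counts were summed per library and cell class. Contrasts within libraries were tested with edgeR 4.0.16 (R 4.3.3), TMM scaling, a library block and 2 residual degrees of freedom. The block pairs the 2 classes because both come from the same pool of mice. Groups were compared by CPM ratios with exact 95% conditional binomial intervals, and a gene was measured at a mean of 20 CPM and called past 2-fold on log2(CPM + 5). Tests were checked on simulated counts: of genes changed 2-fold upward, edgeR called 98% for cycling against resting cells (12887 genes), 96% for IGH in resting cells (11838) and 96% for IGH in cycling cells (11541), and of genes changed 2-fold downward 96%, 86% and 84%. The simulated counts had a fixed spread, the same fold in every library and changes only in genes with many UMIs. These shares therefore do not cover sparse members or effects that differ between libraries.

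The members, the gene lists and the rule for named genes were chosen with earlier results of these data known. Named members were the 12 of highest mean CPM, the 2 highest of each histone class and up to 10 per comparison by size among those past its threshold, and, for other lists, the 3 of highest mean CPM. Any other member named was picked with its values in view. The alternatives were DESeq2 1.42.0, other scalings, filters and pseudocounts, other choices of cells and leaving out each library. Promoters and starts came from RefSeq tables on GRCm38.p6, with windows for 62 members. Clonotype tables were not used. Intervals cover counting error only.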

Additional observations from a re-analysis of the deposited data

Results flagged for a closer look

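For 3 genes the counting intervals of a ratio lay on opposite sides of 1 in different libraries by CPM. With 1 library a group, the difference between libraries was not tested. Hist1h1c, a linker histone gene, had a ratio of cycling over resting cells by CPM of 1.598 (1.49 to 1.72) in the IkB-deficient library, against 0.8732 (0.834 to 0.915) in the young and 0.8446 (0.799 to 0.893) in the aged library. With the shift of the median gene removed these became 1.83 (1.70 to 1.96), 1.045 (0.997 to 1.09) and 1.03 (0.973 to 1.09), and the young and aged intervals then held 1. Hist1h1a, another linker histone gene, had a ratio of resting cells with IGH over those without of 1.303 (1.08 to 1.58) in the young and 0.5706 (0.354 to 0.876) in the IkB-deficient library. Hist1h2bj, an H2B gene, had a ratio of cycling cells with IGH over those without of 1.107 (1.02 to 1.21) in the aged and 0.8186 (0.676 to 0.983) in the IkB-deficient library. For Hist1h1a and Hist1h2bj the intervals stayed on opposite sides of 1 with that shift removed.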

How the results depend on the processing

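All 3 groups rest on 1 library each, and counts of captured histone UMIs set the precision. Among comparisons that answer a question of the design, 119 recomputed values stayed near the main value and 72 moved. For single genes 1118 stayed, 310 moved, 125 lost significance, 4 gained it and 11 reversed. The cause of each move was not tested.

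The 55 members higher in cycling cells stayed between 54 and 58 under the alternatives run, except 40 with no replicate block. For IGH, no replicate block gave 1 member in resting and 0 in cycling cells (6 and 4 at an unadjusted p under 0.05, edgeR), against 15 and 34. Leaving out 1 library gave 0 to 22 in resting and 9 to 42 in cycling cells, and DESeq2 gave 9 and 16. Leaving out cells with other-lineage markers gave 4 and 17. In cycling cells all deposited barcodes gave 19, and the class read from thinned cells 22.

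The summed ratio of cycling over resting cells was 4.011, 4.089 and 5.027 (young, aged, IkB-deficient) with median-of-ratios scaling and 3.992, 3.766 and 5.242 without the top member. It was 3.152, 3.161 and 4.115 without other-lineage cells, 3.863, 4.355 and 5.179 with the thinned class, and 4.239 in the IkB-deficient library with all barcodes.

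IkB-deficient ratios to young, in resting and cycling cells without IGH and then with IGH, were 0.3946, 0.2685, 0.3794 and 0.4287 in cells of 3000 to 6000 UMIs. Scaling by median of ratios gave 0.4362 in resting cells without IGH and 0.4370 in cycling cells with IGH. Without other-lineage cells the values without IGH were 0.3522 and 0.4240. The thinned class gave 0.4400, 0.4696 and, in cycling cells with IGH, 0.4936. All barcodes gave 0.4319 and 0.4056 in cycling cells without and with IGH. Members past 2-fold lower with no minimum numbered 9 in resting cells without IGH, 16 in resting cells with IGH and 26 over all cells, and the depth band gave 24 in cycling cells without IGH.

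Aged ratios in resting cells without IGH were 0.7353 without the top member, 0.6542 without other-lineage cells, 0.5843 for Xist cells and 0.7812 for Y-linked cells. In cycling cells without IGH they were 0.6259 (median of ratios), 0.5802 (all barcodes), 0.6397 (thinned class), 0.4846 (depth band), 0.5185 (Xist) and 0.6098 (Y-linked). In resting cells with IGH they were 0.7518 (no top member), 0.6960 (thinned class), 0.7416 (depth band) and 0.6881 (Y-linked). In cycling cells with IGH they were 0.7342 (median of ratios), 0.6994 (no top member), 0.7226 (no other-lineage cells), 0.7626 (thinned class), 0.7703 (depth band), 0.6859 (Xist) and 0.6965 (Y-linked). Aged members past 2-fold in cycling cells without IGH numbered 5 with 1 CPM added, 5 with a minimum of 10 CPM, 5 with no minimum, 1 with median of ratios and 18 in the depth band (17 lower, 1 higher). The depth band gave 1 in resting cells without IGH and 6 in cycling cells with IGH. Over all cells a minimum of 10 CPM gave 2 and no minimum 3.

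Log2 values for IGH that turned sign in resting cells were those of Hist1h1a, with -0.2086 without the young library, -0.09448 without the aged library, 0.3243 without the IkB-deficient library and -0.4877 without other-lineage cells. Without other-lineage cells Hist1h1d had -0.05831, Hist1h2ap -0.001256 and Hist1h2bj -0.2842. Hist1h3a had 0.09601 with no replicate block and -0.1859 to 0.04606 with 1 library left out, the highest without the IkB-deficient and the lowest without the aged library. In cycling cells Hist1h2bj had -0.06815 without other-lineage cells and -0.03340 with the thinned class, and Hist1h4d had -0.02467 without other-lineage cells. None of these genes passed the edgeR test of that comparison with all cells and libraries.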
